A study of Mus musculus with 4 samples.

Results

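The nuclear-encoded subunits of oxidative phosphorylation were read in RNA-seq of stimulated mouse CD4+ T cells. They were taken as every gene whose symbol begins with Ndufa, Ndufb, Ndufc, Ndufs or Ndufv and a digit, Uqcr, Atp5 or Cox followed by a digit from 4 to 8, or is Sdha, Sdhb, Sdhc or Sdhd, leaving out pseudogenes marked by -ps. The rule found 82 genes of the 16142 in the deposited table, 38 for complex I, 4 for complex II, 8 for complex III, 15 for complex IV and 17 for complex V. The study compares WT CD4+ T cells with CD4+ T cells that make R111A, a mutant form of Regnase-1, an RNase encoded by Zc3h12a that degrades mRNAs of activated T cells. In the mutant, the arginine at the site where the protease MALT1 cuts Regnase-1 is replaced by alanine. The comparison asks what uncleaved Regnase-1 does to the transcripts of activated T cells, and here it was read for the energy-producing machinery of mitochondria. There were 2 libraries of polyA RNA for each genotype.

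The R111A libraries came from mice with the mutant inserted at Rosa26 behind a CAG promoter and a loxP-flanked stop cassette and joined by P2A to EGFP, on a C57BL/6 background. Recombination was by Cd4CreERT2, a tamoxifen-dependent Cre driven by Cd4, after tamoxifen at 75 mg/kg on 5 days, so the mutant was added to the endogenous Regnase-1 and made in cells that express Cd4. The WT libraries came from C57BL/6 mice without the transgene, and the labels do not plainly state whether those mice received tamoxifen, although their wording allows it and the study describes WT controls given tamoxifen for other assays. The transgene and Cre cannot be told apart, and tamoxifen is a further difference if the WT mice did not receive it. In both groups CD4+ cells were sorted from spleen by flow cytometry, with a gate on GFP for the reporter mice, and then received 5 µg/mL of anti-CD3 together with 1 µg/mL of anti-CD28 for 12 h. Ages are not given for the single libraries, and the labels do not say whether the replicates of a group come from separate animals. The p-values below therefore measure only the spread between samples.

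Oxidative phosphorylation is the chain of inner-membrane protein complexes that passes electrons from NADH and succinate to oxygen and uses the proton gradient so made to synthesize ATP. Complexes I, III and IV pump protons, complex II links the chain to the citric acid cycle without pumping, and complex V is the rotary ATP synthase, whose F1 sector makes ATP and whose Fo sector lets protons through. Naive T cells rely on it, and activated T cells keep it running while they raise glycolysis and make new mitochondria.

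The values were FPKM, read counts divided by gene length and library size, and the number of reads behind them is not known. The FPKM of all genes summed to 801475 in WT replicate 1, 836143 in WT replicate 2, 1053551 in R111A replicate 1 and 1012215 in R111A replicate 2. Steps between low values, from 0.1 to 0.6 FPKM, gave WT replicate 1 a depth 1.01 times as large as WT replicate 2 had, and 1.05 and 1.18 times as large as R111A replicates 1 and 2 had. Changes are given as log2 fold changes of R111A over WT on FPKM + 1, fitted with limma over 9831 genes, those whose mean reached 1 FPKM. A gene was called at an adjusted p under 0.05. The smallest p that an exact permutation test allows for 2 libraries against 2 is 0.333, so each call rests on the model fitted across genes. Between replicates, the robust SD of the log2 ratio was 0.16 in WT and 0.21 in R111A over the 78 subunits tested, and 0.14 and 0.32 over all genes tested.

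The labels were checked against marker genes. Zc3h12a was at 16.97 and 15.72 FPKM in WT against 196.30 and 130.87 FPKM in R111A, without separation of the transgene from the endogenous gene. The R111A libraries were far above both WT libraries (log2 fold change 3.22, SE 0.19, adjusted p = 9.19e-06). Of 5 CD4+ T cell markers, Cd3e, Cd3d, Cd4 and Cd28 were present in all 4 libraries and Trac was not in the table. Cd3d was called higher, at 205.01 and 213.72 FPKM in WT against 275.23 and 266.87 FPKM in R111A. Cd4 was called lower, at 157.54 and 131.28 FPKM in WT against 70.69 and 51.35 FPKM in R111A. Cd3e and Cd28 were not called, and Cd3e overlapped between the groups. The 25 markers of CD8+ T, B, myeloid, NK and erythroid cells and platelets summed to 13.3 and 10.86 FPKM in WT and to 45.1 and 37.98 FPKM in R111A, with Hba-a1 of erythroid cells the most abundant in R111A at 12.26 and 11.74 FPKM. Of these markers 7 were tested, 6 were called higher and 1, Cd8b1, lower, beside 21.2% higher and 32.1% lower of all genes tested. The other 18 had a mean under 1 FPKM over the 4 libraries, and the single values above 1 FPKM among them were all in R111A, S100a8 at 2.20 FPKM in replicate 1 and Hbb-bt and Adgre1 at 1.19 and 1.04 FPKM in replicate 2. Hbb-bs, Hba-a2 and Pf4 were at 0 in every library. Of 4 regulatory T cell markers, 2 were called lower, beside 32.1% of all genes tested. These were Foxp3, at 11.31 and 8.78 FPKM in WT against 2.86 and 1.86 FPKM in R111A, and Ctla4. The other 2 were not called, with Il2ra at 140.21 and 136.12 FPKM in WT against 127.30 and 128.61 FPKM in R111A and Ikzf2 at 4.50 and 4.34 FPKM in WT against 2.35 and 4.36 FPKM in R111A. The part of these cells in the results on the subunits was not tested, and in bulk RNA fewer cells of a type and less RNA per cell cannot be told apart.

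The subunits were abundant transcripts. The median over the 78 tested of the mean WT level was 263 FPKM, against 15.0 FPKM over all genes tested, and 71 of them had at least 100 FPKM. Levels differed by complex, with a median of 176 FPKM in complex I, 125 FPKM in complex II, 265 FPKM in complex III, 613 FPKM in complex IV and 708 FPKM in complex V. Within a complex, the highest subunit stood 44.7 times above the lowest in complex I, where Ndufa4 was the highest and Ndufa11 the lowest, and 1.87 times in complex II. Ndufa4 is now placed in complex IV, and the next of complex I, Ndufb1, had a mean of 430 FPKM in WT against 21.7 FPKM for Ndufa11. Atp5e, the epsilon subunit of F1, had the highest mean level of all, at 1452.47 and 1790.32 FPKM in WT. The 4 subunits not tested are forms known from particular tissues, and each was far below its paralogue. Cox4i2, a form of subunit 4 of lung, was at 0.27 and 0.13 FPKM in WT and 0.27 and 0.47 FPKM in R111A. Cox6a2, of heart and skeletal muscle, was at 0.48 FPKM in WT replicate 1 and at 0 in the other libraries. Cox6b2, of testis, was at 0.45 FPKM in both WT libraries and at 0.91 and 0.65 FPKM in R111A. Cox7a1, of heart and skeletal muscle, was at 2.19 FPKM in WT replicate 1, at 0.69 FPKM in R111A replicate 1 and at 0 in the other 2 libraries. Every value of Cox4i2, Cox6a2 and Cox6b2 was under 1 FPKM, too low to read a difference between the groups.

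Of the 78 subunits tested, 25 had a log2 fold change above 0 and 53 below 0. At an adjusted p under 0.05, 7 were called higher in R111A, where 21.2% of all genes were, and 22 were called lower, where 32.1% of all genes were. With a 2-fold change added, 1 was higher against 8.52% of all genes, and 2 were lower against 8.34%. In percent of those tested, 8.97% of the subunits were higher and 28.2% lower. On FPKM as deposited, the lower calls thus stood near the background and the higher calls below it, which changed with the scaling. The median log2 fold change was -0.14, beside -0.12 for all genes tested. The changes were also small, with 78.2% of the subunits within 0.5 of 0 on the log2 scale, against 55.0% of all genes. Among the 1070 genes with a mean WT level of at least 100 FPKM, 14.9% were higher and 46.5% lower, and among the 71 subunits at that level 9.86% were higher and 31.0% lower. The level was taken from WT alone, which favours genes lower in R111A among those kept. These shares are therefore no background matched for level.

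The balance of higher and lower calls depended on how the libraries were scaled. Rescaling each library to TPM, which gives all the same sum, shifted the median of all genes by -0.30, and dividing by median-of-ratios factors shifted it by 0.12. Under TPM, 2 subunits were higher and 52 lower (2.56% and 66.7%), where 13.6% and 51.8% of all genes were. With the 2-fold change, 0 were higher by limma and 6 lower under TPM (0 and 6 also at an unadjusted p under 0.05), where 5.93% and 17.8% of all genes were. Under median-of-ratios factors, 15 were higher and 14 lower (19.2% and 17.9%), where 26.1% and 25.1% of all genes were. Under quantile normalization, 17 were higher and 11 lower (21.8% and 14.1%), where 23.6% and 26.7% of all genes were. The median of the subunits was -0.47 under TPM beside -0.42 for all genes, -0.00 beside 0.01 under median-of-ratios factors and 0.04 beside -0.04 under quantile normalization, so it stayed within 0.1 of the median of all genes under each scaling, below it in 3 and above it under quantile normalization.

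**Figure D1:**
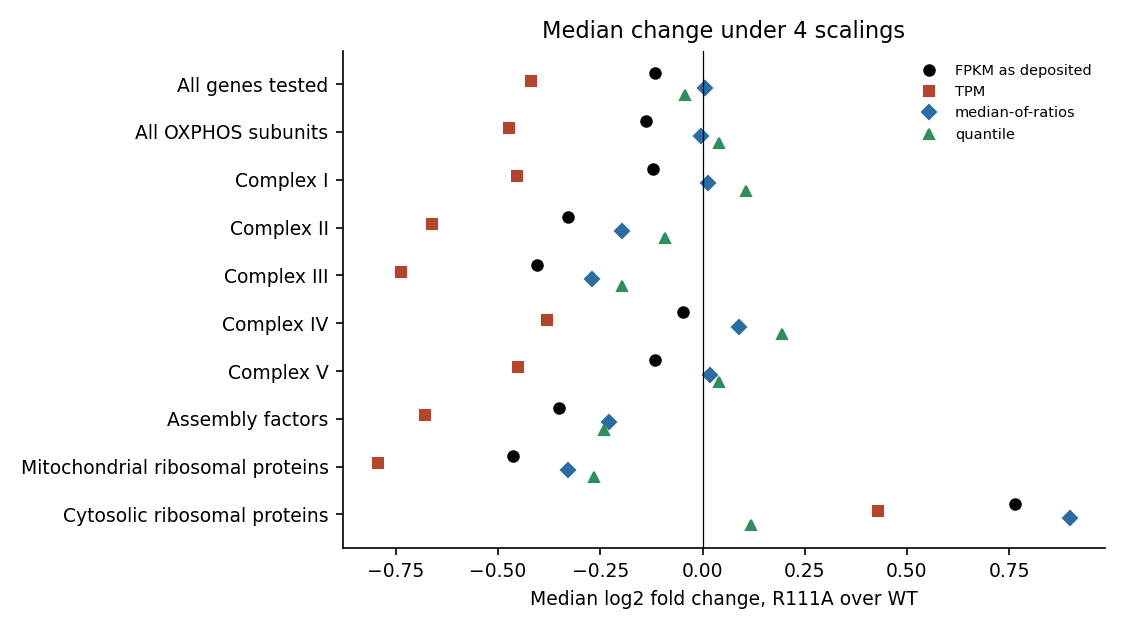
Median log2 fold change of R111A over WT (x axis) for all genes tested, for the subunits together and by complex, and for 3 related lists (y axis), under FPKM as deposited and 3 other scalings. The median of the subunits ranges from -0.47 under TPM to 0.04 under quantile normalization, and the medians of complexes II and III stay below 0 in each while those of I, IV and V change sign.

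Single libraries also moved the counts. Leaving out a library leaves 1 sample in its group, which is then assumed to vary like the other group. Without WT replicate 1 the calls were 2 higher and 12 lower, where 14.4% and 19.9% of all genes were, and without WT replicate 2 they were 6 and 8, where 14.7% and 19.7% were. Without R111A replicate 1 they were 9 and 24, where 25.8% and 37.6% of all genes were, and without R111A replicate 2 they were 11 and 27, where 25.4% and 38.6% were. Calls over all genes thus also fell without either WT replicate and rose without either R111A replicate. Under each alternative that changed the fit (pseudocounts, filters, scalings, the correction for length and GC content, the replicate block, eBayes settings and left-out libraries), 2 subunits kept a call as higher, Cox7a2l and Ndufa13, and 7 kept a call as lower, Atp5a1, Atp5g3, Cox5a, Ndufc1, Sdhd, Uqcr10 and Uqcrfs1. These 9 come from all 5 complexes. How many of all genes kept a call under each of these alternatives was not counted, so these numbers have no background to be set against.

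By complex, the median log2 fold change was -0.12 in complex I, -0.33 in complex II, -0.40 in complex III, -0.05 in complex IV and -0.12 in complex V. The medians of complexes II and III were below 0 under every scaling, while those of complexes I, IV and V turned positive under median-of-ratios factors (0.01, 0.09 and 0.02) and quantile normalization (0.11, 0.19 and 0.04). As each library was left out, the median ranged from -0.22 to -0.060 in complex I, from -0.049 to 0.039 in complex IV and from -0.25 to -0.088 in complex V. The calls at an adjusted p under 0.05 were 3 higher and 10 lower of 38 in complex I, 0 and 2 of 4 in complex II, 0 and 4 of 8 in complex III, 3 and 1 of the 11 tested in complex IV, and 1 and 5 of 17 in complex V. In percent, higher and lower, these are 7.89% and 26.3% in complex I, 27.3% and 9.09% in complex IV and 5.88% and 29.4% in complex V, beside 21.2% and 32.1% of all genes. In complexes II and III, of only 4 and 8 subunits, the share called lower was above that of all genes. The share called higher was below it in both. Scaling turned this balance in complex I, to 1 higher and 25 lower under TPM (2.63% and 65.8%, beside 13.6% and 51.8% of all genes), 8 and 6 under median-of-ratios factors (21.1% and 15.8%, beside 26.1% and 25.1%) and 10 and 3 under quantile normalization (26.3% and 7.89%, beside 23.6% and 26.7%). Complex IV had 1 higher and 6 lower under TPM (9.09% and 54.5%) and 4 and 1 under each of the other 2 scalings (36.4% and 9.09%). For complex V the counts were 0 and 11 under TPM (0.0% and 64.7%) and 2 and 4 under each of the others (11.8% and 23.5%). Complex III had 0 and 7 (0.0% and 87.5%) against 1 and 2 (12.5% and 25.0%), and complex II 0 and 3 (0.0% and 75.0%) against 0 and 1 (0.0% and 25.0%). The shares of all genes under these scalings are those given for complex I. At an unadjusted p under 0.05 in limma on FPKM as deposited, complexes II and III also had 0 higher, with 2 and 5 lower. Differences between complexes were not tested.

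**Figure D2:**
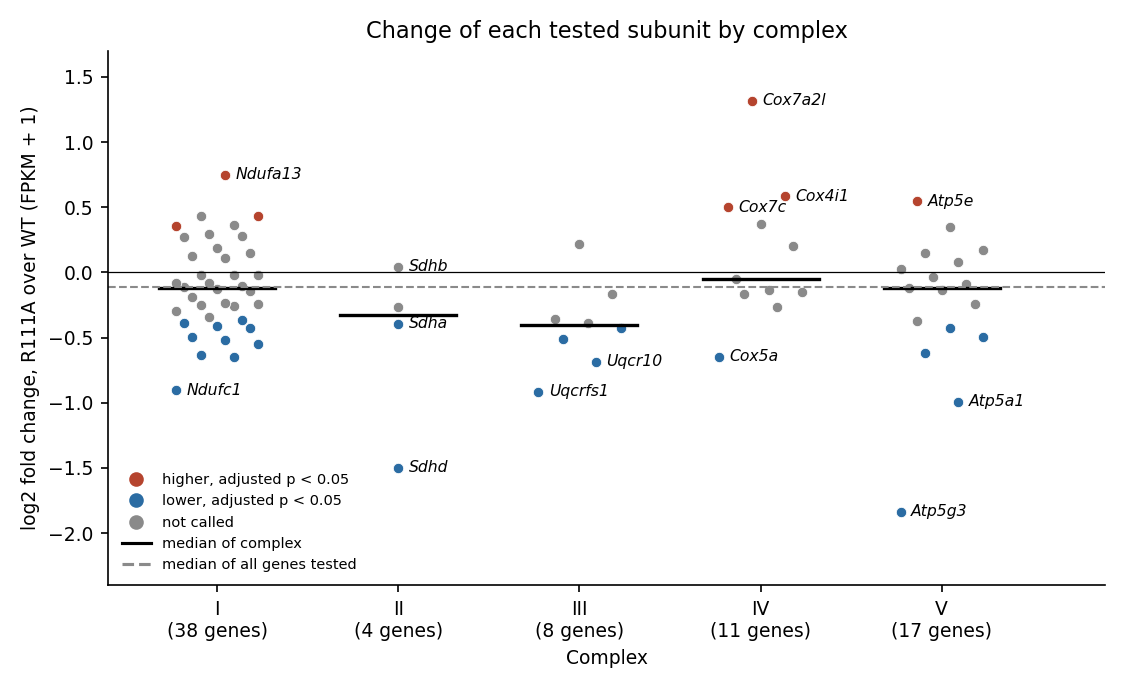
Log2 fold change of R111A over WT (y axis) for each of the 78 tested subunits, by complex (x axis). Black lines mark the median of each complex and the dashed line that of all genes tested at -0.12, and colours mark the calls of limma on FPKM as deposited. Most points lie within 0.5 of 0, and Atp5g3 and Sdhd at the bottom and Cox7a2l at the top stand apart from their complexes.

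Summed over the 82 subunits, the levels were 28594 and 31302 FPKM in WT and 30160 and 28846 FPKM in R111A. The groups overlapped. As a share of the FPKM of all genes, they made up 3.57% and 3.74% in WT against 2.86% and 2.85% in R111A, a ratio of 0.781, with both R111A libraries below both WT libraries. The library sum itself held a large and unequal part from cytosolic ribosomal proteins, 37.01% and 38.54% in WT and 54.58% and 52.66% in R111A. With those genes left out of the sum, an alternative chosen after the data were seen, the subunits came to 5.66% and 6.09% in WT and to 6.30% and 6.02% in R111A, a ratio of 1.05, and the groups overlapped again. Whether the share held by the subunits was lower in R111A or overlapped with WT thus depended on the whole against which it was taken.

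The complexes differed in these sums. Complex II summed to 538 and 563 FPKM in WT and to 411 and 434 FPKM in R111A, and complex III to 2637 and 2794 FPKM in WT and to 2199 and 2156 FPKM in R111A. Both were lower in each R111A library than in each WT library, also as a share of the library sum (ratios 0.609 and 0.636) and with cytosolic ribosomal proteins left out (0.815 and 0.853). Complex IV summed to 5836 and 6178 FPKM in WT and to 7098 and 6730 FPKM in R111A, higher in both R111A libraries. Its ratio was 1.15 in FPKM and 1.22 without cytosolic ribosomal proteins but 0.912 as a share of the whole library sum, where both R111A libraries were lower. For complexes I and V the groups overlapped in summed FPKM, with ratios of 0.973 and 0.963.

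**Figure D3:**
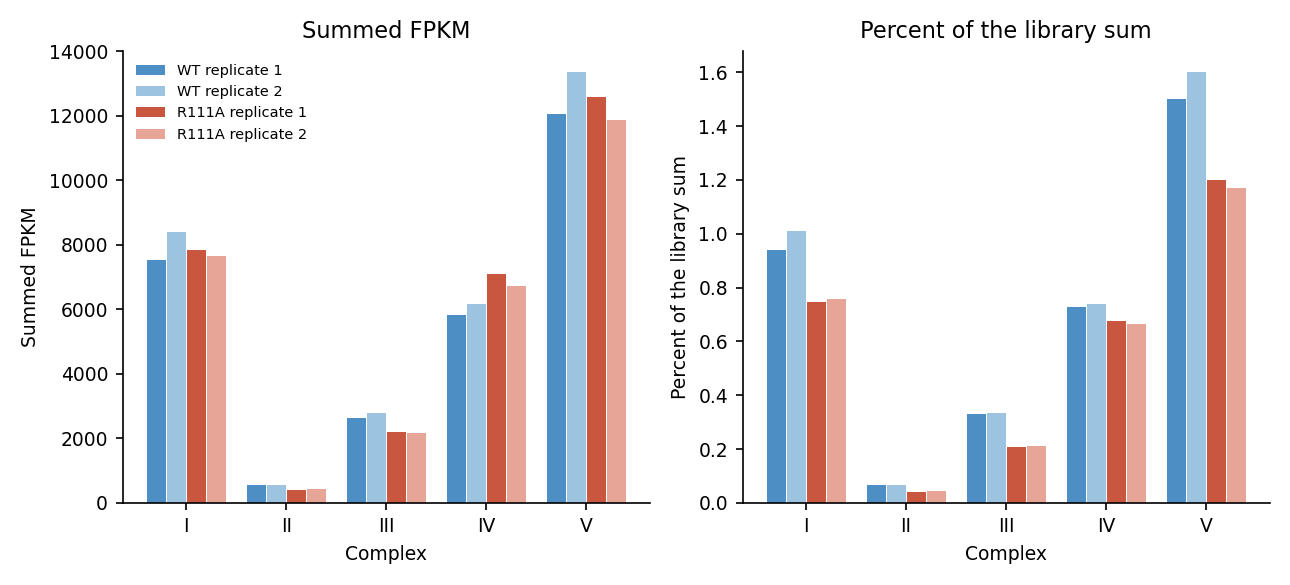
Summed FPKM (left) and percent of the library sum (right) of the subunits of each complex, 1 bar for each of the 4 libraries. In summed FPKM the R111A libraries are below WT for complexes II and III and above it for complex IV, and as a share of the library sum they are below WT for all 5 complexes.

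Complex I takes electrons from NADH. Its 7 nuclear-encoded core subunits, which carry the flavin and the iron-sulfur clusters and are conserved from bacteria, had a median of -0.24, with 2 called lower, Ndufs3 and Ndufs7, neither of which was called under median-of-ratios factors or quantile normalization, while TPM called 6 lower and quantile normalization 1 higher, Ndufs8 (0.36, adjusted p = 0.0386). That median was -0.57 under TPM and -0.10 under median-of-ratios factors, and 0.02 under quantile normalization. The 31 accessory subunits had a median of -0.08, with 3 called higher and 8 lower, and this median was positive under median-of-ratios factors (0.05) and quantile normalization (0.11). In percent, 9.68% of the accessory subunits were called higher and 25.8% lower, beside 21.2% and 32.1% of all genes, and for the core subunits 28.6% were lower. The accessory counts became 1 and 19 under TPM (3.23% and 61.3%, beside 13.6% and 51.8% of all genes, with 85.7% of the core lower), 8 and 6 under median-of-ratios factors (25.8% and 19.4%, beside 26.1% and 25.1%) and 9 and 3 under quantile normalization (29.0% and 9.68%, beside 23.6% and 26.7%). The core subunits of the membrane arm are encoded in mitochondrial DNA, and none of the mitochondrially encoded subunits was found in the table under the symbols searched.

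Ndufa13, also known as GRIM-19, is an accessory subunit needed to assemble the complex. It was at 165.29 and 187.40 FPKM in WT against 307.90 and 285.78 FPKM in R111A. Both R111A libraries lay well above both WT libraries (log2 fold change 0.75, SE 0.13, adjusted p = 0.00154), and it was the subunit of complex I with the highest change under FPKM as deposited. Ndufc1, a small membrane subunit, was at 154.28 and 190.58 FPKM in WT against 91.04 and 91.18 FPKM in R111A. The R111A libraries were nearly equal and below both WT libraries (log2 fold change -0.90, SE 0.14, adjusted p = 0.000925). Among the other lower calls were Ndufa10, on the matrix side (-0.65), and Ndufa8, which faces the intermembrane space (-0.63). Ndufa10 lost its call without WT replicate 1 and Ndufa8 without WT replicate 2. Among the higher ones were Ndufa7 (0.44) and Ndufa2 (0.36), which did not keep their calls under TPM or without either WT replicate. Ndufa7 also lost its call with no filter on low values and without R111A replicate 1.

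The 2 subunits of complex I with the highest mean WT level did not pass the test on FPKM as deposited. Ndufa4, counted here by its name but now placed in complex IV, was at 869.67 and 1070.88 FPKM in WT against 826.10 and 809.50 FPKM in R111A. WT replicate 1 stood closer to R111A than to WT replicate 2 (log2 fold change -0.24, SE 0.14, adjusted p = 0.177), and TPM called it lower (-0.57). Ndufb1, a membrane-arm subunit that came next by the mean but stood below Ndufb7 and Ndufa3 in WT replicate 1, was at 348.61 and 511.38 FPKM in WT against 552.89 and 587.81 FPKM in R111A. Its WT replicates differed by more than WT replicate 2 did from R111A (log2 fold change 0.43, SE 0.18, adjusted p = 0.0722), and median-of-ratios factors and quantile normalization both called it higher. Ndufb4c, one of the 38, is annotated by GENCODE as a processed pseudogene, a copy made from a spliced mRNA, and all 387 coding bases of Ndufb4 are found in it unchanged. Reads of the coding part of these genes cannot be told apart, so their levels are best read together. The sum of Ndufb4 and Ndufb4c was 419.01 and 466.64 FPKM in WT and 577.8 and 432.01 FPKM in R111A, and the groups overlapped.

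Complex II, succinate dehydrogenase, is the one complex of the chain with no mitochondrially encoded subunit. Sdha, the flavoprotein that oxidizes succinate, was at 117.43 and 107.41 FPKM in WT against 83.29 and 86.73 FPKM in R111A. It was lower in both R111A libraries (log2 fold change -0.40, SE 0.13, adjusted p = 0.0268), though not past the test under median-of-ratios factors, under quantile normalization or without either WT replicate. Sdhb, the iron-sulfur subunit, was at 183.39 and 208.32 FPKM in WT against 204.62 and 198.46 FPKM in R111A. The groups overlapped (log2 fold change 0.04, SE 0.13, adjusted p = 0.792; -0.29 under TPM). Sdhc, the larger membrane anchor, was at 97.58 and 111.43 FPKM in WT against 80.86 and 93.16 FPKM in R111A. Its R111A values were lower by little more than the gap between replicates (log2 fold change -0.26, SE 0.14, adjusted p = 0.142), and only TPM among the scalings called it.

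Sdhd, the small membrane anchor (NCBI gene 66925, chr9:50596340-50603849 of GRCm38), was at 139.53 and 136.26 FPKM in WT against 41.74 and 55.54 FPKM in R111A. In R111A it was far below both WT libraries (log2 fold change -1.50, SE 0.16, adjusted p = 0.000113), and the call with the 2-fold change was kept under each of the 4 scalings. Of the summed FPKM of the 4 subunits, Sdhd made up 25.9% and 24.2% in WT and 10.2% and 12.8% in R111A. The ratio of Sdhd to Sdhc, its partner in the membrane, was 1.43 and 1.22 in WT and 0.516 and 0.596 in R111A. Such ratios within a library do not depend on its scaling factor. Since the other 3 subunits changed by less, the transcript of 1 of the membrane anchors was the scarcest of complex II in R111A, while Sdhc was the scarcest or close to it in WT.

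Complex III passes electrons from ubiquinol to cytochrome c. Uqcrfs1, the Rieske iron-sulfur protein and the last catalytic subunit to be inserted, was at 160.57 and 162.81 FPKM in WT against 83.13 and 87.28 FPKM in R111A. The groups stood far apart relative to the spread within each (log2 fold change -0.92, SE 0.12, adjusted p = 0.000401). Uqcr10, a small membrane subunit, was at 745.64 and 663.03 FPKM in WT against 448.97 and 425.73 FPKM in R111A. It was the most abundant transcript of the complex in WT and lower in both R111A libraries (log2 fold change -0.68, SE 0.13, adjusted p = 0.00216). Uqcrh, the hinge protein that helps bind cytochrome c, was at 578.63 and 650.72 FPKM in WT against 725.40 and 701.17 FPKM in R111A. It was the subunit of complex III with the highest log2 fold change, 0.22 (SE 0.13, adjusted p = 0.175), which was -0.12 under TPM and passed the test under median-of-ratios factors and quantile normalization. The core protein Uqcrc1 (-0.42) and the ubiquinone-binding Uqcrb (-0.51) were called lower on FPKM as deposited and under TPM, but not under the other 2 scalings.

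Complex IV, cytochrome c oxidase, reduces oxygen, and its catalytic core is mitochondrially encoded. Cox7a2l, also called SCAFI or COX7RP, resembles the Cox7a subunits and is known for tying complex III to complex IV in supercomplexes. C57BL/6 mice are known to carry a shortened form of it, and both groups here have that background. Cox7a2l (NCBI gene 20463, chr17:83501917-83514333) was at 123.98 and 134.45 FPKM in WT against 338.87 and 308.17 FPKM in R111A. Both R111A libraries were far above WT (log2 fold change 1.32, SE 0.13, adjusted p = 7.38e-05), the highest change of any subunit, and its log2 fold change ranged from 0.98 under TPM, just short of 2-fold, to 1.56 under quantile normalization. Cox7a2, the form of the subunit in most tissues, was at 251.28 and 283.10 FPKM in WT against 268.72 and 248.05 FPKM in R111A. Its groups overlapped (log2 fold change -0.05, SE 0.13, adjusted p = 0.780), with a log2 fold change that was positive under median-of-ratios factors and quantile normalization and called lower under TPM (-0.38). The ratio of Cox7a2l to Cox7a2 was 0.493 and 0.475 in WT and 1.26 and 1.24 in R111A, so the more abundant of these transcripts was Cox7a2 in both WT libraries and Cox7a2l in both R111A libraries. Their coding sequences are the same at 170 of 243 aligned bases, with a longest shared run of 11 bases.

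Cox4i1, the form of subunit 4 in most tissues, was at 702.92 and 826.00 FPKM in WT against 1288.68 and 1011.29 FPKM in R111A. The R111A libraries differed from each other but both lay above WT (log2 fold change 0.58, SE 0.16, adjusted p = 0.0130). Cox7c is a small membrane subunit and the most abundant in WT of those counted by name in complex IV, though below Ndufa4. It was at 778.62 and 933.12 FPKM in WT against 1204.04 and 1204.75 FPKM in R111A. Both R111A libraries were higher (log2 fold change 0.50, SE 0.13, adjusted p = 0.0132). Under TPM, Cox4i1 and Cox7c kept positive log2 fold changes of 0.25 and 0.16 but lost their calls. Both also lost them without WT replicate 1, and Cox4i1 with no filter on low values. Cox5a, which lies on the matrix side, was at 360.45 and 332.53 FPKM in WT against 240.49 and 201.66 FPKM in R111A. It was lower in both R111A libraries and the only subunit of complex IV called lower on FPKM as deposited (log2 fold change -0.65, SE 0.14, adjusted p = 0.00418), though TPM called 6 of the complex lower.

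The remaining forms of complex IV did not pass the test on FPKM as deposited. Cox6c, a membrane subunit, was at 743.65 and 903.63 FPKM in WT against 1130.01 and 994.40 FPKM in R111A. It was higher in both R111A libraries but short of the threshold (log2 fold change 0.37, SE 0.14, adjusted p = 0.0562), and median-of-ratios factors and quantile normalization called it. Cox6a1, Cox7b and Cox8a, all small subunits that stabilize the complex, had log2 fold changes of -0.13, -0.16 and -0.15, and Cox6b1, which joins the monomers on the outer face, had 0.20. Under TPM, Cox6a1, Cox7b and Cox8a were called lower and Cox6b1 turned to -0.13, and under quantile normalization Cox6a1 and Cox7b turned positive (0.03 and 0.07), Cox6a1 also under median-of-ratios factors (0.00). The correction for length and GC content called Cox6a1 lower (-0.31). As each library was left out, Cox6a1 ranged from -0.24 to -0.031 and Cox7b from -0.21 to -0.12. Cox8a ranged from -0.28 to -0.027 and Cox6b1 from 0.090 to 0.31.

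Complex V has 5 subunits in its F1 sector. Atp5a1, the alpha subunit, was at 564.26 and 560.40 FPKM in WT against 269.68 and 294.55 FPKM in R111A. Its replicates were close and the groups far apart (log2 fold change -0.99, SE 0.12, adjusted p = 0.000262). Atp5b, the catalytic beta subunit, was at 1150.47 and 1165.54 FPKM in WT against 845.62 and 797.07 FPKM in R111A. It was lower in both R111A libraries and called under each of the 4 scalings (log2 fold change -0.50, SE 0.12, adjusted p = 0.00804), but not without either WT replicate. Atp5c1, the gamma subunit of the rotating shaft, was below the WT libraries in both R111A libraries without passing the test (-0.37, adjusted p = 0.0549), which it passed under TPM among the scalings, and Atp5d, the delta subunit, was called lower (-0.42, adjusted p = 0.0334), but not under median-of-ratios factors or quantile normalization.

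Atp5e, the epsilon subunit, went the other way. It was at 1452.47 and 1790.32 FPKM in WT against 2409.43 and 2297.35 FPKM in R111A. The R111A libraries were both higher (log2 fold change 0.54, SE 0.14, adjusted p = 0.0109), with a log2 fold change of 0.21 under TPM, and lost the call there, under quantile normalization, after the correction for length and GC content and without WT replicate 1. The ratio of Atp5e to Atp5a1 was 2.57 and 3.19 in WT and 8.93 and 7.80 in R111A. In the assembled F1 sector alpha and beta are present in equal number, while the ratio of Atp5b to Atp5a1 transcripts was 2.04 and 2.08 in WT and 3.14 and 2.71 in R111A. Of the 12 subunits of Fo and the stalks, 2 were called lower, Atp5g3 and Atp5pb, the b subunit of the peripheral stalk (-0.62, adjusted p = 0.00586), and 0 higher by limma (1 at an unadjusted p under 0.05), with a median of -0.06 that was -0.40 under TPM, 0.07 under median-of-ratios factors and 0.04 under quantile normalization. The lower calls were 16.7% of them, beside 32.1% of all genes. TPM called 7 of them lower (58.3%, beside 51.8% of all genes), while median-of-ratios factors called 1 higher and 2 lower (8.33% and 16.7%, beside 26.1% and 25.1%) and quantile normalization 2 and 2 (16.7% of each, beside 23.6% and 26.7%). Atp5j2, the f subunit of Fo, had a mean WT level next to that of Atp5e in the complex, though Atp5b was above it in WT replicate 1 and Atp5md in WT replicate 2. It was at 1123.17 and 1296.01 FPKM in WT against 1696.76 and 1391.98 FPKM in R111A. It was higher in both R111A libraries without passing the test (log2 fold change 0.35, SE 0.15, adjusted p = 0.0728), which it passed under median-of-ratios factors and quantile normalization. Its log2 fold change ranged from 0.21 to 0.49 as each library was left out.

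Subunit c forms the ring of Fo that turns as protons pass, and the genes Atp5g1, Atp5g2 and Atp5g3 are known to encode the same mature protein behind different targeting peptides. The ends of their coding sequences are shown, and how reads were assigned among these genes was not tested. Over the last 225 coding bases the 3 genes have the same base at 168, and over the last 90, printed here, at 66. The stretches are read 5′ to 3′ along the mRNA from the minus strand of GRCm38 at chr11:96073107-96073196, chr15:102663017-102663106 and chr2:73908596-73908685, and capitals mark the positions at which the 3 genes are not all alike.
Atp5g1: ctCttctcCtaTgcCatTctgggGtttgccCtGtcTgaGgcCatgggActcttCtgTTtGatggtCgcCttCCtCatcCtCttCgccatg
Atp5g2: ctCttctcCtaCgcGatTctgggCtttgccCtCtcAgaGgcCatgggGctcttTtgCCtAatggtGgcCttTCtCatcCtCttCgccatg
Atp5g3: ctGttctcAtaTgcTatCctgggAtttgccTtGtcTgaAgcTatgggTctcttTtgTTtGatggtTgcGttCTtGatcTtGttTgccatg
The differences are spread along the stretch and no run of more than 20 bases is shared by any pair of these genes over the whole coding sequence.

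Atp5g3 (NCBI gene 228033, chr2:73908447-73912464) was at 759.17 and 775.64 FPKM in WT against 222.70 and 205.10 FPKM in R111A. The R111A libraries were far below WT (log2 fold change -1.84, SE 0.12, adjusted p = 1.36e-05), the lowest change of any subunit under each scaling. Atp5g2 was at 696.00 and 720.74 FPKM in WT against 586.11 and 609.31 FPKM in R111A. Its R111A libraries were lower without passing the test (log2 fold change -0.24, SE 0.12, adjusted p = 0.114). Atp5g1 was at 437.74 and 406.20 FPKM in WT against 394.70 and 396.60 FPKM in R111A. It was slightly below WT in R111A, by no more than the spread between samples (log2 fold change -0.09, SE 0.12, adjusted p = 0.546), and turned positive under median-of-ratios factors and quantile normalization. TPM called Atp5g1 and Atp5g2 lower as well. Of the sum of the 3 genes, Atp5g3 made up 40.1% and 40.8% in WT, as the most abundant form, and 18.5% and 16.9% in R111A, as the least abundant. The sum itself was 1892.91 and 1902.58 FPKM in WT and 1203.51 and 1211.01 FPKM in R111A, so the other genes did not make up for the lower Atp5g3.

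**Figure D4:**
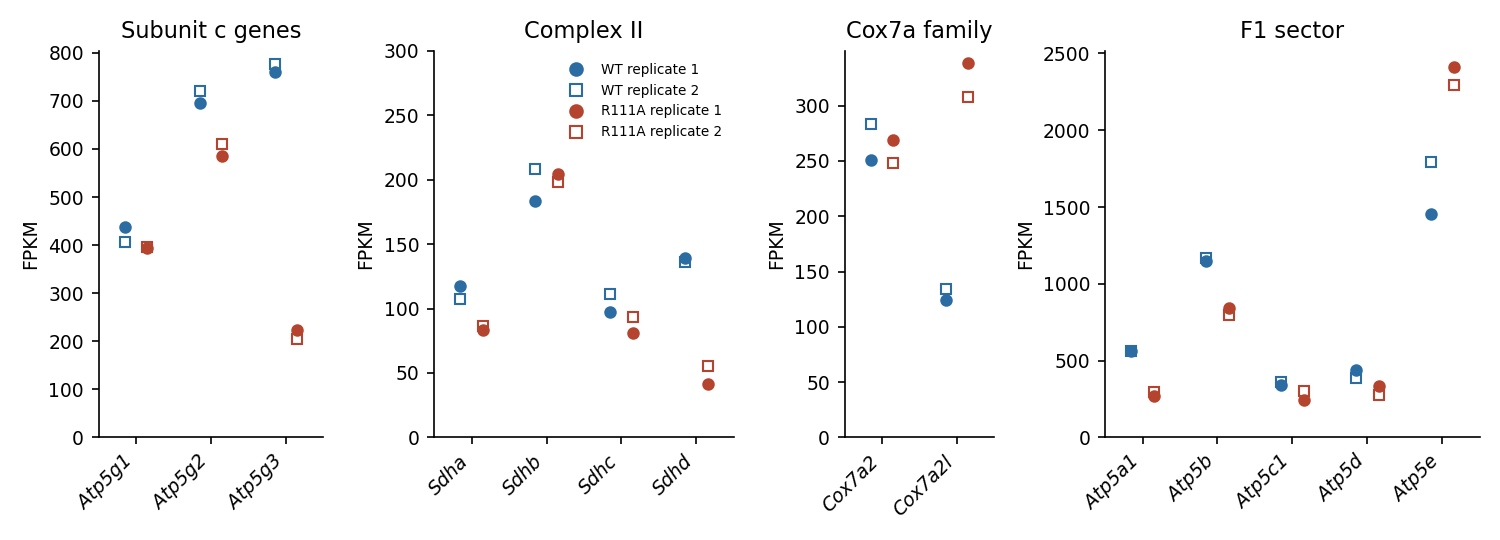
FPKM in each of the 4 libraries (y axes, each panel with its own range) of the subunit c genes, the subunits of complex II, the Cox7a pair and the F1 sector (x axes). Atp5g3, Sdhd and Atp5a1 are far below WT in both R111A libraries and Cox7a2l far above, while Atp5g1, Sdhb and Cox7a2 lie close together.

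The change of a subunit went with its coding length. Across the 76 tested subunits with a coding length, Spearman's rho between coding length and log2 fold change was -0.42, against 0.01 across 9747 genes tested. Genes are not independent replicates and all of these values come from the same 4 libraries, so rho is given as a description. It was -0.42 under TPM, -0.43 under median-of-ratios factors and -0.37 under quantile normalization, and -0.27 after a loess correction of each library for the length and GC content of transcripts. By complex it was -0.39 over 36 subunits of complex I, -0.74 over 17 of complex V and -0.01 over 11 of complex IV. Of the 19 subunits with under 300 coding bases, 11 were above 0, with a median of 0.08, beside 0.03 for 185 genes of that length. Of the 37 with 300 to under 600 bases, 9 were above 0 and the median was -0.13, beside -0.11 for 1171 genes. Of the 20 with 600 bases or more, 3 were above 0, 0 were called higher by limma and 10 lower (0 and 12 at an unadjusted p under 0.05), and the median was -0.37, beside -0.12 for 8391 genes, of which 20.5% were called higher and 32.4% lower. These counts are of FPKM as deposited and moved with the scaling. Atp5o, Ndufs8 and Sdhb, which were above 0, fell below it under TPM (-0.16, -0.18 and -0.29), which also added lower calls such as Atp5c1. Quantile normalization called Atp5o (0.34) and Ndufs8 (0.36) higher. Ndufs3, Ndufs7, Sdha and Uqcrc1 lost their lower calls under median-of-ratios factors and quantile normalization, and Ndufv3 under the latter. Without a library in turn, rho over the subunits ranged from -0.48 to -0.35. Among other lists it was -0.05 over 78 mitochondrial ribosomal proteins, -0.32 over 77 cytosolic ones and -0.30 over 50 assembly factors.

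**Figure D5:**
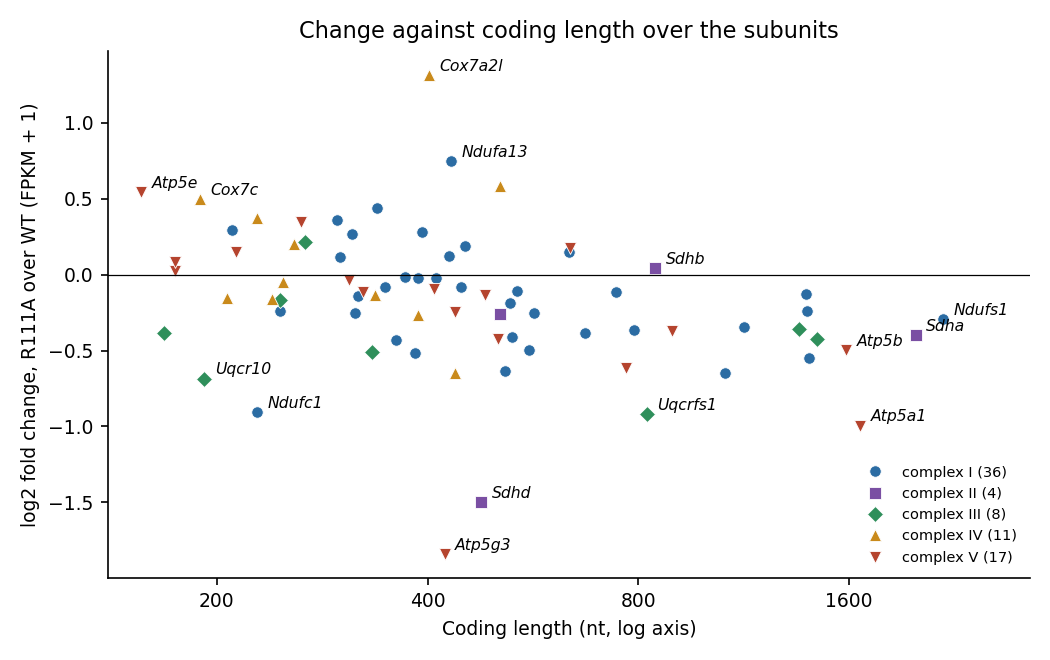
Log2 fold change of R111A over WT (y axis, FPKM as deposited) against coding length in bases (log axis) for 76 tested subunits, with a symbol for each complex. The shortest, Atp5e and Cox7c among them, lie mostly above the longest, of which 3 of 20 with 600 bases or more are above 0, and Atp5g3, Sdhd and Cox7a2l lie far from the others of their length.

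The subunits were also compared by their promoters, from 250 bases before the start to 50 after it, in the RefSeq table of GRCm38, which held 67 of the 82. Both strands were searched for motifs of factors known to drive these genes, and for the TATA box. The NRF1 letters GCGCATGC were in 10 of the 67 (14.9%), against 3.05% of 27025 genes and 6.78% of the 8041 tested genes with a promoter. The ETS letters CCGGAAG, bound by GABPA among others, were in 17 (25.4%), against 9.93% and 23.6%. The YY1 letters AAGATGGCG, which can overlap the end of an ETS match by the bases they share, were in 7 (10.4%), against 1.64% and 4.23%. The TATA box letters TATAAA were in 6 (8.96%), against 15.7% and 8.20%. Subunits with and without a match had median log2 fold changes of -0.08 and -0.15 for NRF1, -0.03 and -0.24 for ETS, -0.19 and -0.14 for YY1 and 0.00 and -0.16 for TATAAA. These differences were not tested.

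The 60 bases before the start are printed for the 3 subunits past both thresholds, which are the clearest changes in either direction. All are on the minus strand of GRCm38, at chr17:83514334-83514393 for Cox7a2l, chr2:73911327-73911386 for Atp5g3 and chr9:50603850-50603909 for Sdhd, and capitals mark a match to one of the 4 motifs. The start of Atp5g3 in the promoter table lies inside the span of the gene given above, which reaches further upstream, and Timm8b is transcribed away from Sdhd on the other strand just beyond the bases shown.
Cox7a2l: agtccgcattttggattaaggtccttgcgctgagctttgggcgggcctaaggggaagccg
Atp5g3: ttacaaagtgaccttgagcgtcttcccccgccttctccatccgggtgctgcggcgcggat
Sdhd: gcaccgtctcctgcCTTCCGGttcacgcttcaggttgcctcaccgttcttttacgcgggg
Sdhd holds the ETS letters on the other strand, beginning 46 bases before the start, and the whole windows of Cox7a2l and Atp5g3 hold none of the 4 motifs.

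The genes lie on 19 chromosomes, with at most 7 on one. In GENCODE, 27 of them share exonic bases with another gene, 21 of these with a protein-coding gene in the table. The table does not say whether reads were assigned by strand. Ndufa13 shares 375 bases with Tssk6 on the opposite strand, which was at 0.33 FPKM or less in all 4 libraries, far below Ndufa13. Cox4i1 shares 154 bases with Emc8 on the opposite strand, which was at 14.60 and 14.03 FPKM in WT against 13.95 and 11.84 FPKM in R111A, also far below Cox4i1. Atp5a1 shares 129 bases with Haus1, at 17.90 and 20.74 FPKM in WT against 8.64 and 10.56 FPKM in R111A. Other partners were closer to the subunit or above it. Ndufb5, at 109.54 and 124.73 FPKM in WT against 88.05 and 108.47 FPKM in R111A, shares 616 bases with Mrpl47, at 68.28 and 81.37 FPKM in WT against 33.55 and 33.68 FPKM in R111A. Ndufs6 shares 30 bases with Mrpl36, and Ndufs1, at 54.83 and 51.83 FPKM in WT, shares 9 bases with Eef1b2, at 635.48 and 666.36 FPKM. These pairs were picked after their values were seen, and what the overlaps add to the levels of the subunits was not tested. Atp5g3, Sdhd and Cox7a2l share no exonic bases with another annotated gene.

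Related genes were read from lists of the same pathway. Of 6 structural subunits that the symbols do not match, 3 were in the table, and limma called 2 lower and 0 higher, the same counts as at an unadjusted p under 0.05, where 32.1% of all genes were called lower and 21.2% higher at an adjusted p. Cyc1, the cytochrome c1 of complex III, was at 147.42 and 162.01 FPKM in WT against 93.66 and 83.45 FPKM in R111A. It was lower in both R111A libraries (log2 fold change -0.80, SE 0.13, adjusted p = 0.00121). Ndufab1, the acyl carrier protein of complex I, was at 313.53 and 329.31 FPKM in WT against 203.69 and 178.64 FPKM in R111A. It was lower in both as well (log2 fold change -0.75, SE 0.13, adjusted p = 0.00149), and both genes were called under each scaling. They were named after their values were seen.

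Assembly factors build the complexes without staying in them. Of 51 listed, 50 were tested, and limma called 0 higher and 22 lower (44.0%, against 32.1% of all genes). At an unadjusted p under 0.05 the counts were 0 and 24. Their median of -0.35 was below 0 under each scaling, although 2 were called higher under median-of-ratios factors (4.0%, beside 26.1% of all genes) and 3 under quantile normalization (6.0%, beside 23.6%). The lower calls were 33 under TPM (66.0%, beside 51.8% of all genes) and 17 under each of the other 2 scalings (34.0%, beside 25.1% and 26.7%). Bcs1l, which inserts the Rieske protein Uqcrfs1 into complex III, was at 12.10 and 12.88 FPKM in WT against 3.73 and 4.16 FPKM in R111A. Both R111A libraries were lower (log2 fold change -1.45, SE 0.14, adjusted p = 7.66e-05). Coa5, an assembly factor of complex IV, was at 58.59 and 56.86 FPKM in WT against 20.54 and 23.57 FPKM in R111A. Both were again lower (log2 fold change -1.35, SE 0.13, adjusted p = 8.72e-05). Pet117, also for complex IV, was at 16.21 and 30.34 FPKM in WT against 0 and 8.38 FPKM in R111A. The R111A replicates were far apart, and the log2 fold change of -2.92 (SE 0.83, adjusted p = 0.0167) ranged from -4.54 to -1.31 as each library was left out.

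Of 16 genes of cytochrome c and coenzyme Q synthesis, 15 were tested, 1 was called higher (6.67%) and 6 lower (40.0%), beside 21.2% and 32.1% of all genes, with a median of -0.34 that was below 0 under each scaling. Coq7, a hydroxylase of coenzyme Q synthesis, was at 35.73 and 35.24 FPKM in WT against 12.64 and 13.20 FPKM in R111A. Its R111A libraries were far below WT (log2 fold change -1.39, SE 0.13, adjusted p = 6.53e-05). Coq8a, an atypical kinase of the same pathway, was at 1.34 and 1.21 FPKM in WT against 4.23 and 3.22 FPKM in R111A. It was low in all libraries and higher in both of R111A (log2 fold change 1.05, SE 0.16, adjusted p = 0.000729). Of 20 regulators of mitochondrial biogenesis in the table, 19 were tested, 2 were called higher (10.5%) and 4 lower (21.1%), beside 21.2% and 32.1% of all genes. The counts were 1 and 11 under TPM (5.26% and 57.9%, beside 13.6% and 51.8% of all genes), 2 and 2 under median-of-ratios factors (10.5% each, beside 26.1% and 25.1%) and 2 and 3 under quantile normalization (10.5% and 15.8%, beside 23.6% and 26.7%), and the median of -0.12 was -0.44 under TPM and 0.01 under both of the others. This median ranged from -0.105 to -0.071 as each library was left out. Myc, which drives mitochondrial genes and growth in activated T cells, was at 228.22 and 203.56 FPKM in WT against 127.80 and 87.58 FPKM in R111A. Both R111A libraries were lower, though apart from each other (log2 fold change -1.02, SE 0.18, adjusted p = 0.00186).

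The 2 groups of ribosomal proteins frame these values. Of 78 mitochondrial ribosomal proteins, which translate the mitochondrially encoded subunits, 2 were called higher (2.56%) and 48 lower (61.5%), beside 21.2% and 32.1% of all genes, with a median of -0.46 that was below 0 under each scaling. The counts were 1 and 71 under TPM (1.28% and 91.0%, beside 13.6% and 51.8% of all genes), 2 and 33 under median-of-ratios factors (2.56% and 42.3%, beside 26.1% and 25.1%) and 4 and 32 under quantile normalization (5.13% and 41.0%, beside 23.6% and 26.7%). Mrpl4, Mrps34 and Mrpl55, proteins of the large, small and large subunit, had the lowest log2 fold changes of those called, -1.26, -1.23 and -1.21. Of 77 cytosolic ribosomal proteins tested, 65 were called higher and 0 lower by limma (84.4% higher, beside 21.2% of all genes; 1 lower at an unadjusted p under 0.05), with a median of 0.76. The median was 0.43 under TPM with 53 higher and 4 lower (68.8% and 5.19%, beside 13.6% and 51.8% of all genes), 0.90 under median-of-ratios factors with 67 higher (87.0%, beside 26.1%), and 0.12 under quantile normalization with 29 higher and 8 lower (37.7% and 10.4%, beside 23.6% and 26.7%). Rps19, Rps24 and Rps28, all of the small subunit, had the highest log2 fold changes called, 1.75, 1.58 and 1.37. The median of the oxidative phosphorylation subunits, -0.14, lay between those of the cytosolic and mitochondrial ribosomal proteins under each scaling.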

How the data were processed

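RNA-seq of 2 WT and 2 R111A libraries was used. By the submitters' processing notes, the authors aligned reads to mm10 with Bowtie2 2.4.4 and estimated expression with RSEM 1.2.28, and deposited FPKM for 16142 genes, of which 1694 were at 0 in all libraries. No per-sample column was left unused (0 columns). The authors' DESeq2 step needs counts and was not repeated. Read numbers are not known. Genes whose mean reached 1 FPKM were tested with limma 3.58.1 in R 4.3.3 (lmFit, eBayes with a trend, Benjamini-Hochberg adjustment) on log2(FPKM + 1). The procedure was tested on simulated data, with no outcome of that given here. Other steps used python 3.11.15, numpy 2.4.6, pandas 2.3.3, scipy 1.17.1 and biopython 1.88. Coding sequences and exons were from GENCODE vM21 and promoters and gene positions from RefSeq, both of GRCm38.

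Genes were named by a rule: Zc3h12a; in each complex the 2 with the highest mean WT FPKM and those with the highest and the lowest log2 fold change; those past an adjusted p under 0.05 and a 2-fold change; the SDH subunits; the Cox4i, Cox6a, Cox6b, Cox7a, Cox7b, Cox8, Atp5g and Ndufa4 families; and, in each related list, up to 3 past both thresholds in each direction. Other names were chosen after their values were seen. The members and lists were chosen with earlier results of these data known.

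The alternatives were a pseudocount of 0.1 or 5 FPKM, a filter at 5 FPKM or none, TPM, median-of-ratios factors, quantile normalization, a loess correction (span 0.5) for transcript length and GC content, the replicate number as a block, eBayes without a trend or with robust estimation, each library left out, a membership by structure, and a library sum without cytosolic ribosomal proteins. Mitochondrially encoded subunits were not analysed here, since none was found in the table under the symbols searched.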

Additional observations from a re-analysis of the deposited data

How the results depend on the processing

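Scaling and single libraries both moved the results on the subunits. Rescaled to TPM, the calls at an adjusted p under 0.05 became 2 higher and 52 lower, and with a 2-fold change 0 higher and 6 lower; the medians of log2 fold change became -0.47 for all subunits and -0.45, -0.66, -0.74, -0.38 and -0.45 for complexes I to V. With median-of-ratios factors, 15 were higher and 14 lower, and the medians were -0.0044 for all subunits and 0.012, -0.20, -0.27, 0.088 and 0.018 for complexes I to V. With quantile normalization, 17 were higher and 11 lower, and the medians were 0.042 for all subunits and 0.11, -0.093, -0.20, 0.19 and 0.040. TPM and median-of-ratios factors multiply each library by 1 factor, and the median of all genes moved with them by -0.30 and 0.12. Under quantile normalization it moved by 0.07, less than the medians of the subunits did; the cause was not tested. With the correction for length and GC content, the median of complex III was -0.52; the cause was not tested. The ratio of R111A to WT in the share of the subunits in the library sum changed from 0.781 to 1.05 when cytosolic ribosomal proteins were left out of the library sum, an alternative chosen after the data were seen, as leaving out single libraries for this ratio was; the cause was not tested beyond the shares of those proteins given in the report.

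Leaving out each library in turn, with the lone sample assumed to vary like the other group, gave 2 to 11 higher and 8 to 27 lower calls, and 1 to 1 higher and 2 to 3 lower with a 2-fold change. WT replicates 1 and 2 and R111A replicate 2 moved the counts by more than 1.5 times: without WT replicate 1 they were 2 and 12, without WT replicate 2 they were 6 and 8, and without R111A replicate 2 they were 11 and 27. Over all genes the same fits called 14.4% higher and 19.9% lower, 14.7% and 19.7%, and 25.4% and 38.6%, beside 21.2% and 32.1% with all libraries. The medians ranged from -0.22 to -0.10 for all subunits, -0.22 to -0.060 for complex I, -0.39 to -0.27 for complex II, -0.47 to -0.36 for complex III, -0.049 to 0.039 for complex IV and -0.25 to -0.088 for complex V, and the ratio of shares from 0.763 to 0.801. With the replicate number as a block, 9 were higher and 25 lower, and the share of all genes called in that fit was not counted. The replicate numbers are only shared numbers, and the correlation of the changes between the pairs of equal number was 0.11.

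Pseudocounts, filters and eBayes settings kept the counts of the subunits within 1.5 times and their medians, over all and by complex, within the spread between replicates. Membership by structure, which leaves out Cox7a2l and adds Ndufab1 and Cyc1, both called lower, moved the medians by less than the spread between replicates over all subunits (-0.15) and in complexes I (-0.13) and III (-0.42); in complex IV the median went from -0.047 to -0.091, also within that spread. This membership gave 6 higher and 24 lower calls and, with a 2-fold change, 0 higher and 2 lower. It kept Ndufa4 in complex I, so the medians with Ndufa4 in complex IV, where it is now placed, were not taken. The medians of 2 related lists moved more: for cytochrome c and coenzyme Q synthesis to -0.29 with a pseudocount of 5 FPKM and -0.24 with no filter, and for regulators of mitochondrial biogenesis to -0.084 with no filter and with a filter at 5 FPKM. For the 39 named genes that were tested, 531 of 584 values under the alternatives kept direction and side of the threshold, 24 passed it newly, 15 no longer passed it and 14 changed sign without a call in either, and 0 reversed a call. Without WT replicate 1, Atp5e, Cox4i1, Cox7c and Sdha lost their calls, and Sdha also without WT replicate 2. The number of reads is not known, so what depth limits cannot be given, and 2 libraries a group limit the precision of every value.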
